A study of Mus musculus with 36 samples.

Results

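The genes of protein folding and stress in the endoplasmic reticulum were followed through 6 times of day in the bladders of adrenalectomised mice. The 32 genes were found by symbol among 49585 features in the deposited expression tables. All 32 were measured, and all 32 passed the filter on low values that left 17867 features for the tests between treatments. By role, they comprised 10 luminal chaperones and cochaperones, 2 lectin chaperones, 5 disulfide and prolyl isomerases, 1 translocation subunit, 7 genes of ER-associated degradation, 3 stress sensors, and 4 transcription factors and stress effectors.

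The study concerned control of the bladder clock and of daily urination by glucocorticoids. Whole bladders came from C57BL/6 mice, and every animal in every group had both adrenal glands removed, so the adrenal source of corticosterone was absent under both treatments. After recovery one set received corticosterone (CORT), the main glucocorticoid of the mouse, at the inactive phase, and the other set received vehicle. Libraries of rRNA-depleted total RNA were made for 3 replicates at 4, 8, 12, 16, 20 and 24 h in each treatment, which gave 12 groups and 36 libraries. The labels do not say what 0 h was, nor the dose, age or sex, nor whether the replicates were separate animals, so every p-value measures only the spread between these libraries. No group had intact adrenals.

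The endoplasmic reticulum is where secreted and membrane proteins fold. Hspa5 (BiP), an Hsp70 of its lumen, binds unfolded chains, with J-domain partners such as Dnajb11 and Dnajc3 and the exchange factor Hyou1, while Hsp90b1 (Grp94) and the protein disulfide isomerases act later in folding. When unfolded protein accumulates, the sensors Atf6, Ern1 (Ire1) and Eif2ak3 (Perk) become active, and they act through cleaved Atf6, spliced Xbp1 and translated Atf4. Together these induce chaperones and degradation genes, and Ddit3 (Chop) and Trib3 under prolonged stress. In the bladder this machinery serves the urothelium, which packs its surface with uroplakins, and the fibroblasts and smooth muscle that secrete collagen and matrix.

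Promoters of this family carry the ER stress response element, a CCAAT box and a CCACG box held apart by a fixed gap, at which NF-Y and Atf6 bind. RefSeq promoter sequences of GRCm38.p6 (mm10), from 250 bases before to 50 after each start, were held for 27 of the 32 genes. Hyou1, Hspa13, Manf, Derl1 and Atf6 had no entry and were not searched. In the shares below, each of the 27 counts once if any of its promoter entries matched. All promoters are counted entry by entry, so the units are not alike. The element was searched on both strands as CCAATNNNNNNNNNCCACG and was found in 8 of the 27 (29.6%), against 39 of all 32851 promoters (0.119%). The compact form ERSE-II, searched as ATTGG and CCACG with 1 free base between them, was found in 2 of the 27 (7.41%), against 0.0365% of all promoters. The windows below are those of holders of either form that recur in the results, with Canx as a holder whose level hardly moved. Hyou1 and Manf, which lead some results, are absent because they had no entry. Each is printed 5′ to 3′ on the strand of its gene with the element in capitals, and windows that meet an annotated exon are shorter.
Hspa5, chr2:34772020-34772048, plus strand: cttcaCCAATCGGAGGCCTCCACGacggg
Pdia6, chr12:17266481-17266519, plus strand: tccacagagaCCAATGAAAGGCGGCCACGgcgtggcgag
Dnajc3, chr14:118937817-118937855, plus strand: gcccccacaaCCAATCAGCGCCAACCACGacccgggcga
Hsp90b1, chr10:86705628-86705666, minus strand: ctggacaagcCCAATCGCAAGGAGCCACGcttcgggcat
Canx, chr11:50325790-50325828, minus strand: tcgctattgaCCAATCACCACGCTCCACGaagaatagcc
Creld2, chr15:88819510-88819548, plus strand, element reversed: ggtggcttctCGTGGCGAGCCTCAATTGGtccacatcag
Calr, chr8:84847065-84847103, minus strand, element reversed: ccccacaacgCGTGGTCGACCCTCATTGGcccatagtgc
Herpud1, chr8:94386367-94386397, plus strand, ERSE-II: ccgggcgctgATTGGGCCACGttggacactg
Dnajb11, chr16:22857847-22857867, plus strand, ERSE-II: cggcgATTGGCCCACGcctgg
The first base of the element lay 65 bases before the RefSeq start in Hspa5, 98 in Pdia6 and 105 in Dnajc3. Hsp90b1 held a second, reversed copy, and Syvn1 was the eighth holder of the element. TGACGTGG, the core of the Xbp1 element, was found in 0 of the 27 promoters and 0.676% of all promoters. TGATGCAA, a core of the element bound by Atf4 and Ddit3, was found in Herpud1 alone (0.895% of all promoters). The E-box CACGTG, the site of the clock factors Clock and Bmal1, was found in Calr, Dnajb9 and Selenos, 11.1% of the 27 against 7.15% of all promoters. A match describes the letters in the window and says nothing about binding.

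Levels are normalised read counts, set on a common scale over the libraries (see the processing). Per kilobase of exon, the most abundant of the 32 genes in vehicle bladders was P4hb, the isomerase that is also a subunit of prolyl 4-hydroxylase, at 1877 ± 154 counts per kb (mean ± SD, n = 18 libraries). The lectin chaperones Canx, at 1697 ± 96.4, and Calr, at 1630 ± 277, came next, followed by Pdia3 at 1343 ± 123, Hsp90b1 at 1125 ± 154 and Hspa5 at 979 ± 322. Canx and Calr, and Hsp90b1 and Hspa5, differed by less than the SD of either, and the other neighbours among these 6 differed by more. Transcription factors were lower, with Atf4 at 441 ± 98.1 and Xbp1 at 404 ± 65.3 counts per kb. The sensors were rarer still and steady, with Atf6 at 116 ± 7.79, Eif2ak3 at 95.1 ± 7.76 and Ern1 at 83.2 ± 5.79 counts per kb. Ddit3, at 65.9 ± 16.7, Derl2, at 54.9 ± 4.68, and Trib3, at 13.6 ± 4.21, were the lowest. Among the 10 most abundant genes Hspa5 had the largest SD relative to its mean, and Canx the smallest.

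Some properties of the libraries bear on every result. Mean totals per library ran from 9591304 to 12311336 counts over the replicates of each treatment, and replicates of a group correlated across features at 0.974 to 0.989 on the log2 scale. The authors' tables name 8 replicate 2 libraries, those of 4, 8, 16 and 20 h of both treatments, in 2 ways. In the tables of genes selected on 3 replicates they stand under other names than in the full tables. In the tables of genes selected on 2 replicates the names match the full tables. Under the other names, the values of vehicle 16 h and 20 h stand as CORT 4 h and 8 h. Those of CORT 16 h and 20 h stand as vehicle 4 h and 8 h. The values of 4 h and 8 h stand as 16 h and 20 h of the same treatment. The time thus differs for all 8 libraries, and the treatment for some of them. The names of the full tables, which match the sample titles, were used, and results are also given without these 8 libraries or with the other names. The library of vehicle 16 h replicate 1 stood apart: it held the highest vehicle value for 12 of the 32 genes, among them Hspa5, Manf, Xbp1, Atf4, Ddit3 and Trib3. The protocol text describes RNA from blood with removal of globin, yet summed markers of urothelium (49595 to 121160 counts) and smooth muscle (142220 to 405840) were high in every library. Those of neutrophils reached 14.0 with Ly6g at 0. Those of erythroid cells reached 6407, but that list holds globin genes, which such removal would lower. The clock genes Nr1d1 and Dbp were lower, and Arntl higher, at the late times of vehicle, with log2 differences of -2.19, -1.91 and 0.90 (limma, Benjamini-Hochberg adjusted p = 2.6e-07, 8.0e-06 and 0.012). Summed with Per2, their early and late medians were 3416 and 1206 in vehicle and 2032 and 1612 in CORT. Sums of the glucocorticoid targets Fkbp5, Tsc22d3, Per1, Zbtb16 and Sgk1 ran from 2015 over a median of 3096 to 5193 in vehicle. In CORT they ran from 2029 over 2742 to 13798, the last at an early time.

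Hspa5 (chr2:34771970-34777547) had the widest course over the day in vehicle bladders. Its values in replicates 1, 2 and 3 were 2691, 3715 and 3721 at 4 h, 3648, 4728 and 4579.9 at 8 h, 2832, 2643 and 2752 at 12 h, 7344, 4816 and 3256.5 at 16 h, 5707, 5915 and 5883 at 20 h, and 4147, 2936 and 3246 at 24 h. All libraries of 20 h lay above all those of 4, 8, 12 and 24 h, the 12 h libraries were a low point between 8 h and 20 h, and those of 16 h were scattered over the whole range. Means were 5835 ± 112 at 20 h and 2742 ± 94.8 at 12 h (SD, n = 3), a ratio of 2.13. In CORT bladders its values were 4304, 2951 and 2804.5 at 4 h, 3019, 3105 and 3687 at 8 h, 2634, 3444 and 3085.5 at 12 h, 3439.6, 4514.5 and 4454 at 16 h, 5841, 3421 and 4642 at 20 h, and 3539, 3574 and 3584.5 at 24 h. The 20 h mean was again the highest and the 12 h mean the lowest, at a ratio of 1.52, but replicate 2 of 20 h lay below replicate 2 of 12 h and the groups overlapped. That library is one of those named in 2 ways.

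Hyou1 (chr9:44379490-44392369), the large luminal chaperone that exchanges nucleotide on Hspa5, followed a similar course. In vehicle its values were 1398, 1915 and 1779 at 4 h, 1577, 1845 and 1877 at 8 h, 1474, 1622.5 and 1466 at 12 h, 2456, 2173 and 1879 at 16 h, 2418, 2802 and 2704 at 20 h, and 2089, 1699.6 and 1779 at 24 h. In CORT they were 1651, 1726 and 1766 at 4 h, 1581, 1617 and 1829.8 at 8 h, 1484, 1841 and 1765 at 12 h, 1724, 2042 and 2021 at 16 h, 2099, 1919 and 2501 at 20 h, and 1767, 2030.2 and 2014 at 24 h. In vehicle the 20 h libraries lay above all those of 4, 8, 12 and 24 h, and the 12 h libraries below all those of 16 and 20 h. In CORT the 20 h libraries lay above those of 4, 8 and 12 h and overlapped those of 16 and 24 h.

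**Figure D1:**
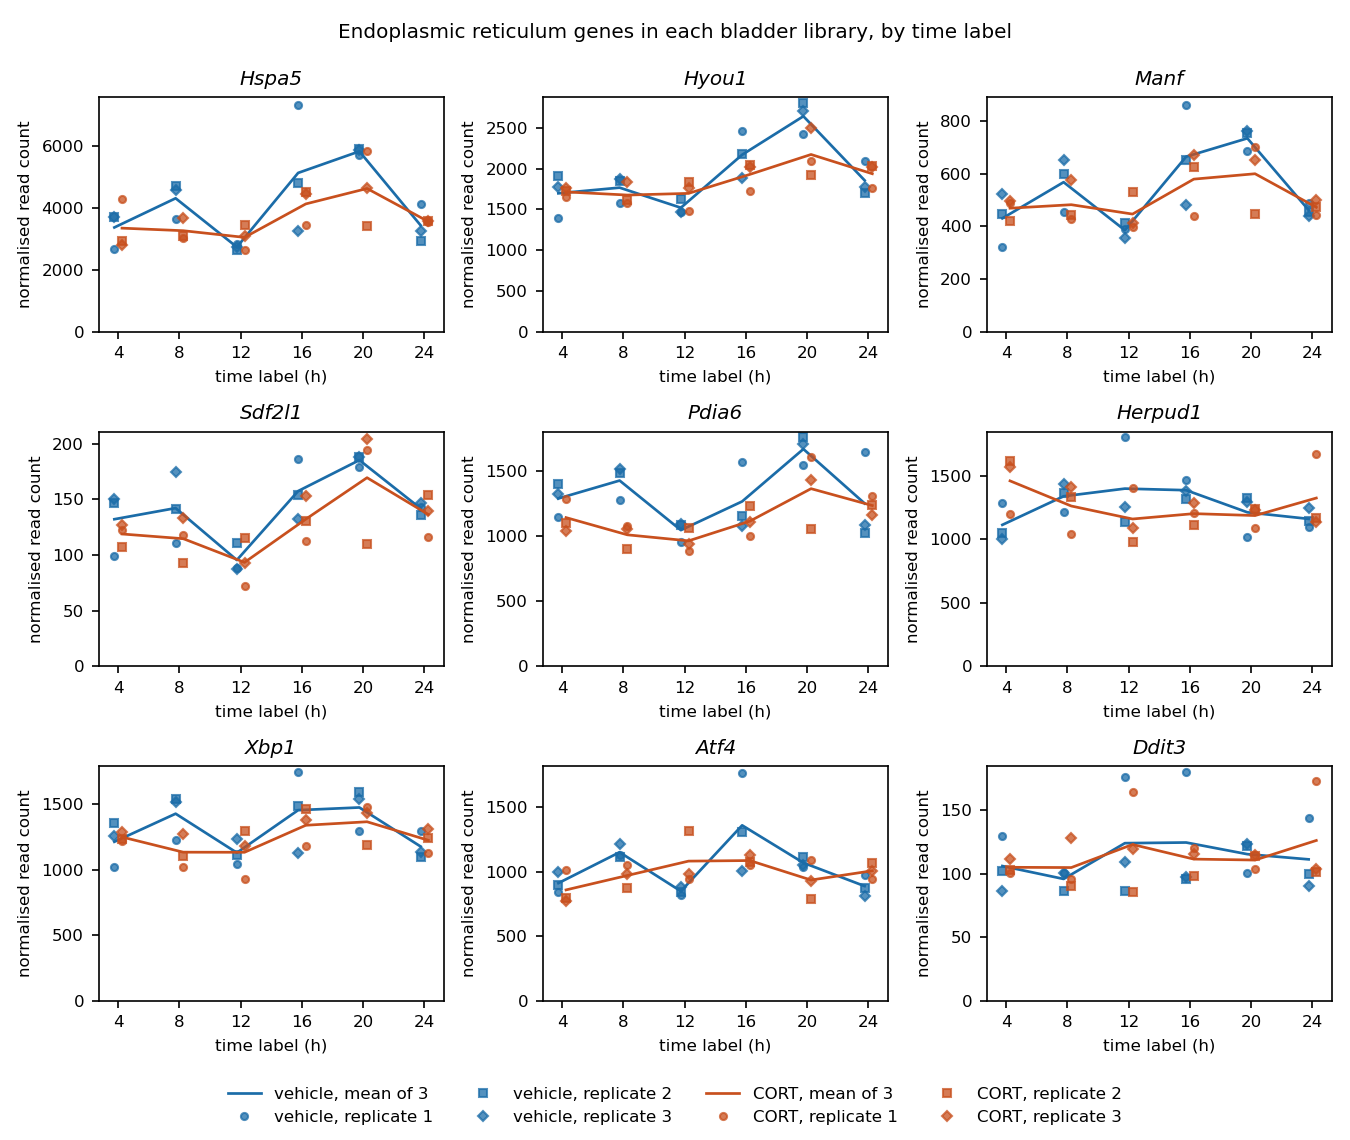
Normalised read count (y axis) against time in h (x axis) for 9 of the 32 genes, 1 panel a gene. Points are single libraries, 3 per time and treatment, and lines join the group means. Hspa5, Hyou1, Manf and Sdf2l1 reached their highest mean at 20 h under both treatments, and the vehicle library at 7344 for Hspa5 at 16 h is replicate 1.

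Other chaperones shared the low 12 h and high 20 h values of vehicle. Manf, a luminal nucleotide-exchange inhibitor of Hspa5 that is also secreted, stood at 389, 414 and 355 at 12 h and at 688, 755 and 761 at 20 h, a ratio of means of 1.90. Sdf2l1, a partner of the Dnajb11 cycle, stood at 87.9, 111 and 87.7 against 179, 188 and 188, a ratio of 1.94. For both, each 20 h library lay far above each 12 h library. The same ratio was 1.62 for Creld2, 1.60 for Pdia6, 1.49 for Calr, 1.37 for Dnajc3 and 1.33 for Hsp90b1. For Canx, whose highest and lowest means were at 20 h and 8 h, the ratio of these means was 1.09. Over the 32 genes, the highest mean was at 20 h for 20 in vehicle and 18 in CORT, and the lowest at 12 h for 15 and 13. The share of all features with these times was not counted, so the counts only describe the 32. In CORT the libraries of the highest and the lowest time overlapped for most of the 32.

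Counting genes whose 3 libraries at 20 h all lay above the 3 at 12 h gave 18 of 32 in vehicle, where 6.91% of all features did so, and 4 of 32 in CORT, where 4.01% did. None of the 32 lay wholly below, where 9.23% of features did in vehicle and 3.36% in CORT. At 20 h against 24 h the count was 15 of 32 in vehicle (6.76% of features) and 0 in CORT (3.67%). At 8 h against 12 h it was 9 of 32 in vehicle (6.23%) and 0 in CORT (4.11%). These times were picked after the values had been seen, so the counts carry no test. The counts depended on the 8 libraries named in 2 ways. Without them, which leaves 2 libraries at 8 h and at 20 h and so lets more features lie apart, 20 h lay above 12 h for 18 of 32 in vehicle (10.3% of features) and 18 of 32 in CORT (8.42%), and above 24 h for 16 (11.2%) and 15 (8.02%). In that setting 8 h lay above 12 h for 9 (8.67%) and 5 (8.28%). With the other names the counts in vehicle and CORT were 16 (5.40%) and 1 (3.63%) for 20 h above 12 h, and 9 (5.24%) and 2 (3.30%) for 20 h above 24 h. For 8 h above 12 h they were 3 (3.37%) and 5 (3.20%), so that CORT held more. In vehicle, Hspa5 was apart in all 3 pairs of times under each of the 3 settings.

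**Figure D2:**
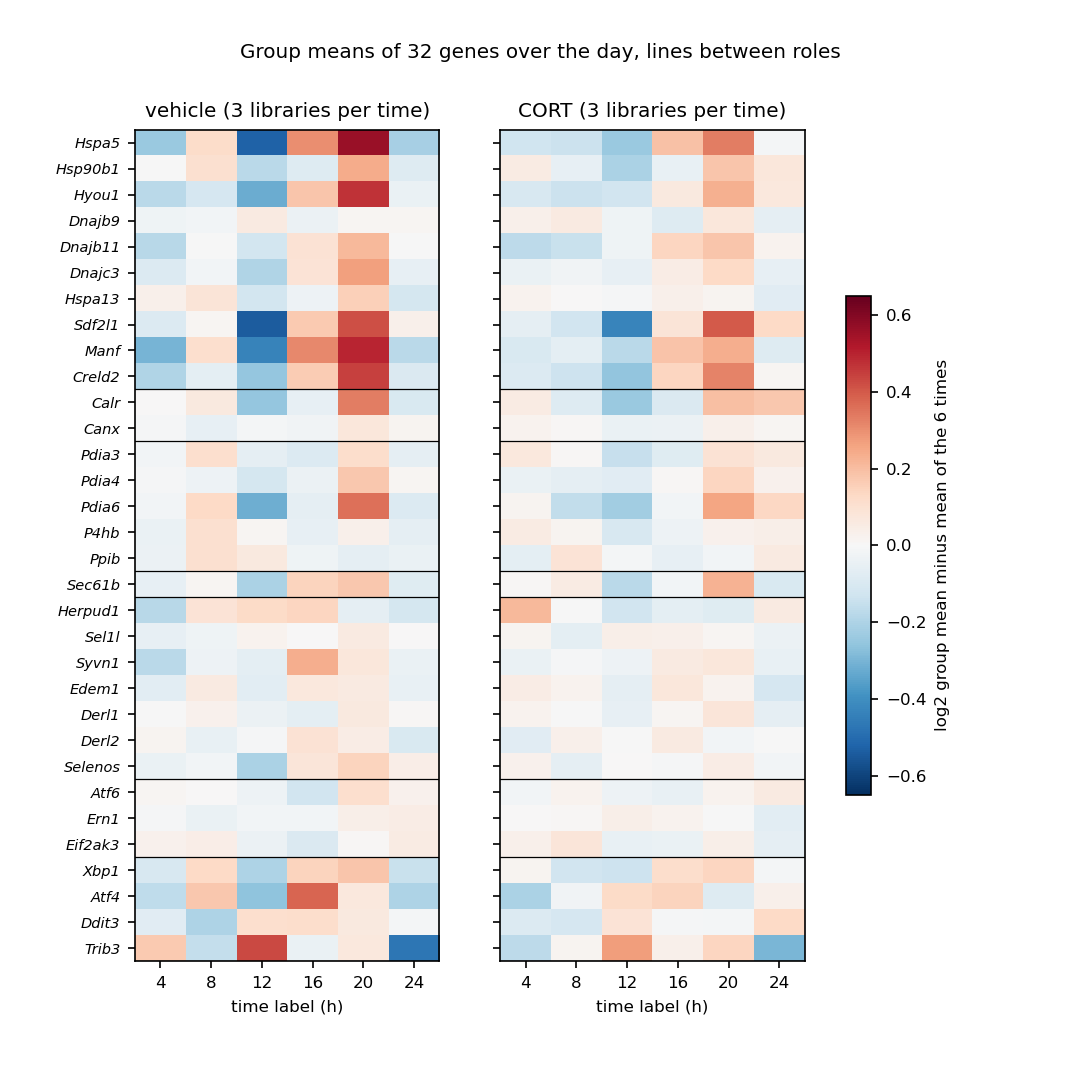
Mean log2(value + 1) of each group minus the mean of the 6 times of its treatment (colour, from -0.65 to 0.65) for the 32 genes (rows, by role) at 6 times in vehicle and in CORT (columns). In vehicle the rows of Hspa5, Hyou1, Manf, Sdf2l1 and Creld2 are highest at 20 h and lowest at 12 h, that of Dnajb9 is highest at 12 h, and those of the sensors stay closer to 0 than the first 5.

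The later part of the day (16, 20 and 24 h) was compared with the earlier part (4, 8 and 12 h) in a model over all features on log2(value + 1). This contrast was chosen because genes of the endoplasmic reticulum had been called in it in earlier results of these data. Its calls and counts are therefore a description and not independent support. In vehicle 1 of the 32 genes rose at an adjusted p of 0.05 or less, where 0.519% of the 17717 features tested changed in either direction. This was Hyou1, at 0.40 ± 0.08 on the log2 scale (SE, 95% interval 0.24 to 0.57, 1.32-fold, limma adjusted p = 0.042, n = 9 and 9 libraries). The call was narrow: it was lost when any 1 of 15 vehicle libraries was left out, and held only without 4 h replicate 2, 12 h replicate 2 or 16 h replicate 3. The estimate stayed between 0.36 and 0.44 in these fits, with adjusted p from 0.016 to 0.089. Without 16 h replicate 3, where 2.52% of features passed, Hspa5, Manf, Sdf2l1, Dnajb11 and Dnajc3 passed beside Hyou1. In whole bladders, a change in the share of a cell type and a change in RNA per cell cannot be told apart. Of the 12 lists of cell type markers, none had a gene called in this comparison (limma). Of their 69 genes tested, 8 had an unadjusted p under 0.05, where 5.94% of features were higher and 7.04% lower at that level. Summed fibroblast markers had vehicle medians of 239460 early and 187500 late, with overlapping ranges (139810 to 301670 and 178330 to 218510). Those of urothelium had medians of 62326 and 72045. The part of cell makeup in the late-minus-early differences was not tested.

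At an unadjusted p under 0.05, 8 of the 32 genes were higher late in vehicle (25.0%, against 5.94% of features) and 0 were lower (7.04%). Beside Hyou1 these were Hspa5 at 0.44 ± 0.14 (adjusted p = 0.19, limma), Manf at 0.42 ± 0.12, Sdf2l1 at 0.41 ± 0.11, Creld2 at 0.34 ± 0.11, Dnajb11 at 0.20 ± 0.07, Dnajc3 at 0.20 ± 0.05 and Syvn1, the ubiquitin ligase Hrd1, at 0.18 ± 0.06. All but Syvn1 were luminal chaperones and cochaperones, whose median difference was 0.27, against 0.0002 over all features. The exceptions within that role were Hsp90b1 at 0.05 ± 0.08, Hspa13 at 0.00 ± 0.06 and Dnajb9 at -0.01 ± 0.08, with 95% intervals of -0.13 to 0.22, -0.13 to 0.14 and -0.19 to 0.17.

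In CORT, 0 of the 32 genes passed (limma), where 1 of 17921 features did (0.00558%). At an unadjusted p under 0.05, 6 of 32 were higher late (18.8%, against 2.58% of features) and 0 lower (2.9%). These were Sdf2l1 at 0.41 ± 0.14, Hspa5 at 0.34 ± 0.11, Creld2 at 0.32 ± 0.10, Pdia6 at 0.25 ± 0.08, Hyou1 at 0.25 ± 0.07 (adjusted p = 0.70) and Dnajb11 at 0.22 ± 0.08, and the luminal chaperones had a median of 0.22. The difference of the late-minus-early contrast between treatments was tested directly: 0 of 32 genes passed (0.0056% of features), and 0 had an unadjusted p under 0.05 (4.91%). It was -0.16 for Hyou1 (95% interval -0.37 to 0.05) and -0.09 for Hspa5 (-0.46 to 0.28), so a different daily course of these chaperones under CORT was not detectable with 3 replicates, nor was it shown to be alike.

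**Figure D3:**
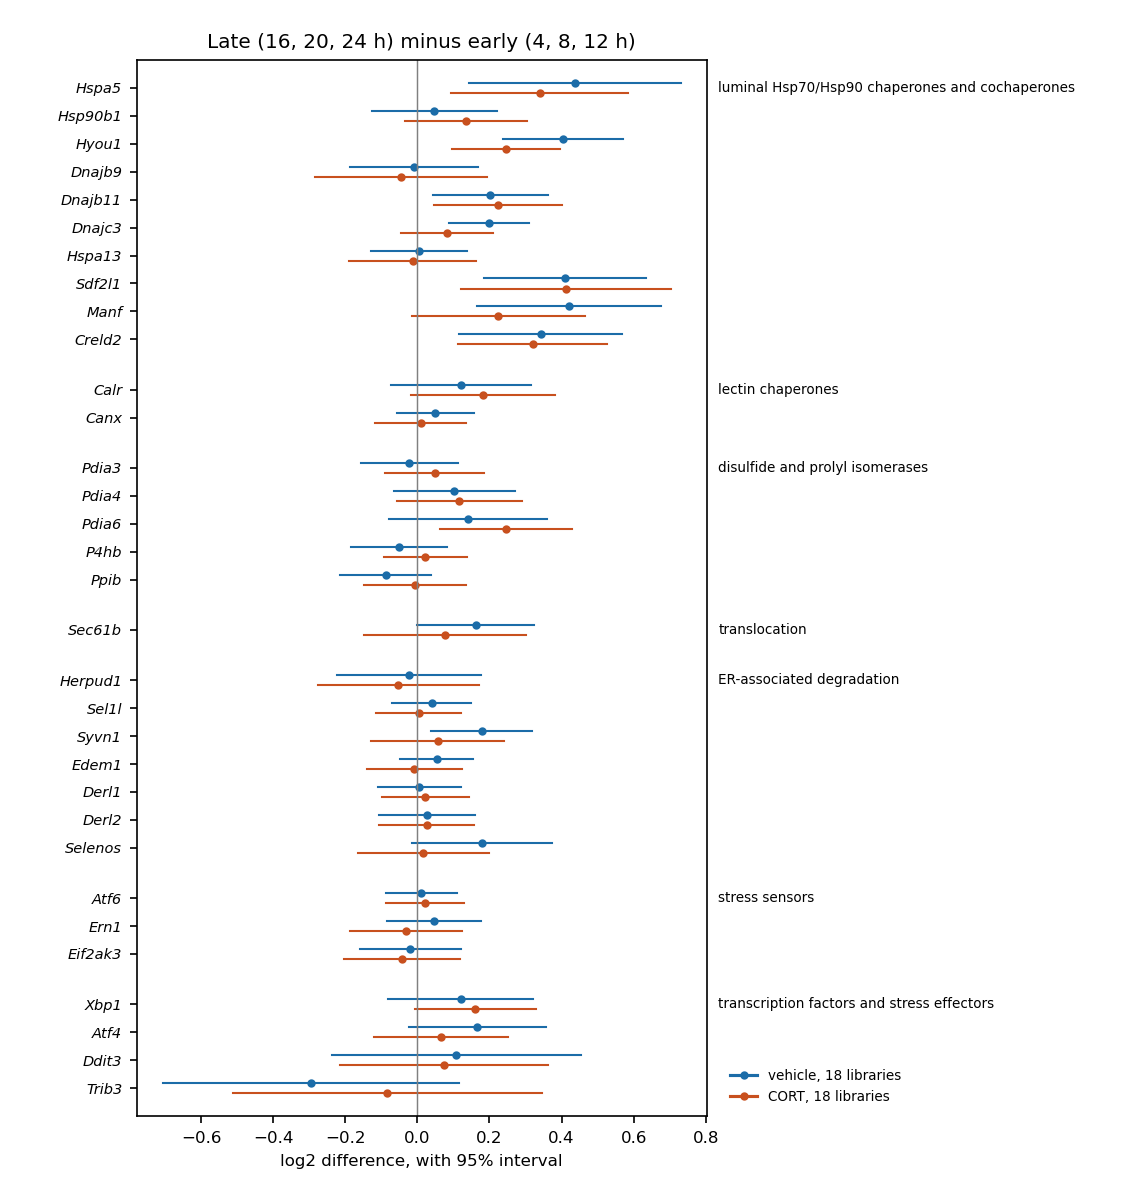
Late-minus-early difference in log2(value + 1) (x axis) with its 95% interval for each of the 32 genes (y axis, by role), in vehicle and CORT. Of the 10 luminal chaperones, 9 lie to the right of 0 in vehicle and 8 in CORT, with Hspa5 at 0.44 and 0.34, and the sensors lie between -0.04 and 0.05.

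None of the genes of the remaining roles passed the test between late and early times under either treatment (limma). Trib3 had the widest difference among them in vehicle, -0.30 ± 0.19 (95% interval -0.71 to 0.12), and stood at -0.08 ± 0.20 in CORT. Sec61b, a subunit of the translocation channel, was at 0.16 ± 0.08 and 0.08 ± 0.10, and the degradation gene Selenos at 0.18 ± 0.09 and 0.02 ± 0.09. The isomerases had medians of -0.02 in vehicle and 0.05 in CORT, with Pdia6 at 0.14 and 0.25 and P4hb, the collagen-modifying subunit, at -0.05 and 0.02. The 7 degradation genes had medians of 0.04 and 0.02. Herpud1, which carries ERSE-II and scaffolds the Hrd1 complex, was at -0.02 ± 0.09 and -0.05 ± 0.10. Atf6, Ern1 and Eif2ak3 stayed between -0.04 and 0.05 in both treatments. Their standard errors were 0.05 to 0.08. The transcription factors gave 0.12 ± 0.09 and 0.16 ± 0.08 for Xbp1 and 0.17 ± 0.09 and 0.07 ± 0.09 for Atf4.

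Ddit3 (chr10:127290774-127296288), the proapoptotic factor of prolonged stress, did not follow the chaperones. In vehicle it stood at 176, 86.4 and 109 at 12 h, where Hspa5 was lowest, at 179.9, 96.1 and 97.6 at 16 h, and at 101, 122 and 124 at 20 h. Replicate 1 was the highest of its group at 4, 12, 16 and 24 h, and the groups of 12, 16 and 20 h overlapped. The late-minus-early difference was 0.11 ± 0.16 in vehicle and 0.07 ± 0.13 in CORT. Trib3, a pseudokinase induced by Atf4 and Ddit3, ranged in vehicle from 12.8 to 49.4 around a median of 28.9, with both extremes at 16 h, in replicates 3 and 1. Manf and Ddit3 overlap other annotated loci and the strand setting of the counting is not given in the sources used here, so their values may hold reads of a neighbour.

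A 24 h cosine gave 0 of 32 genes past the threshold in vehicle (limma, 0.44% of features) and 0 in CORT (0.0% of features). At an unadjusted p under 0.05 there were 6 in vehicle (18.8%, against 12.7% of features) and 8 in CORT (25.0%, against 5.89%). Hyou1 had the smallest p under both treatments, with an amplitude of 0.30 ± 0.07 and a peak at 19.7 h in vehicle and 0.18 ± 0.05 and 20.2 h in CORT (adjusted p = 0.13 and 0.52). In CORT the 8 genes, Pdia6, Creld2, Calr, Dnajb11, Sdf2l1, Hspa5 and Hsp90b1 beside Hyou1, peaked between 18.4 and 23.3 h. Any change over the 6 times gave 0 of 32 in vehicle (0.401% of features) and 0 of 32 in CORT (0.0167%), with 10 and 2 at an unadjusted p under 0.05 (13.9% and 5.60% of features). The vehicle count depended on the libraries, and so did that of all features: 12 of 32 passed with library weights (21.9% of features), and 5 without 16 h replicate 3 (2.33%).

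A 12 h term was added to the cosine after the 8 h and 20 h highs of vehicle had been seen, so it is a description of that shape. No feature passed in vehicle (limma, 0.0% of 17717), and 13 of the 32 genes had an unadjusted p under 0.05 (40.6%, against 7.26% of features). Hspa5 had the largest amplitude, 0.41 ± 0.10, followed by Manf at 0.35 ± 0.09 and Sdf2l1 at 0.27 ± 0.08. Peaks of the 13 fell between 6.07 and 7.47 h and between 18.1 and 19.5 h. In CORT 0 of the 32 did so (4.17% of features), and Hspa5 had an amplitude of 0.13 ± 0.08. The difference between treatments passed for 0 of 32 (0.0112% of features), with an unadjusted p of 0.013 for Atf4, the only one under 0.05 (4.63% of features), and 0.098 for Hspa5 (adjusted p = 0.98 for both, limma).

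CORT was then compared with vehicle over the whole day. None of the 32 genes passed (limma), where 4.21% of features did, 260 higher and 492 lower. At an unadjusted p under 0.05, 5 of 32 were lower in CORT (15.6%, against 9.31% of features) and 0 higher (11.3%), and the median difference of the 32 was -0.03 against 0.02 over all features. Pdia6, a disulfide isomerase that binds Hspa5, ranged from 958 over a median of 1300.4 to 1760.1 in vehicle and from 886 over 1089.9 to 1607 in CORT. The ranges overlapped widely, and the difference was -0.21 ± 0.07 (95% interval -0.35 to -0.07, adjusted p = 0.069). Calr was at -0.17 ± 0.06, Hsp90b1 at -0.14 ± 0.05, Pdia3 at -0.12 ± 0.04 and Edem1, a mannosidase-like degradation factor, at -0.08 ± 0.03, with adjusted p from 0.10 to 0.20. Pdia6 passed with library weights, at -0.22 (limma adjusted p = 0.031, 12.6% of features), and when any 1 of 5 libraries was left out: CORT 12 h replicate 2, CORT 24 h replicate 1, vehicle 16 h replicate 3, vehicle 24 h replicate 2 or vehicle 24 h replicate 3, at -0.22 to -0.23 (adjusted p from 0.033 to 0.049). Hspa5 was at -0.14 ± 0.09, Xbp1 at -0.07 ± 0.06, Atf4 at -0.05 ± 0.07 and Ddit3 at 0.02 ± 0.10.

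By time, none of the 32 genes differed between treatments at an adjusted p of 0.05 or less (limma), where 0.162%, 0.795%, 0.0448%, 0.0112%, 0.0% and 0.0336% of features did at 4, 8, 12, 16, 20 and 24 h. The time with most members at an unadjusted p under 0.05 was 8 h, with 4 lower in CORT (12.5%, against 7.86% of features) and 0 higher (7.29%). In either direction 15.1% of features did so, a larger share than that of the members. Pdia6 at 8 h was 1278, 1487 and 1521 in vehicle and 1076, 902 and 1056 in CORT. The groups did not overlap, and the difference was -0.50 ± 0.16 (95% interval -0.83 to -0.17, adjusted p = 0.13). Xbp1 at 8 h was 1224, 1538 and 1513 in vehicle and 1022, 1099.6 and 1274 in CORT, so that 1 CORT library lay within the vehicle range, and it differed by -0.33 ± 0.15. Hsp90b1 was at -0.30 ± 0.14 and Pdia3 at -0.22 ± 0.11. The median of the 32 at 8 h was -0.08, against 0.05 over all features. It was -0.03 without vehicle 8 h replicate 3, -0.05 without CORT 8 h replicate 1 and -0.13 without vehicle 8 h replicate 1. With the other library names the median turned to 0.07 and the Pdia3 difference to 0.05.

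At 20 h, where Hspa5 was highest, 8 of the 32 genes were estimated higher in CORT (25.0%, against 57.6% of features), with a median of -0.11 against 0.04 over all features. Without CORT 20 h replicate 2, a library named in 2 ways, 12 were estimated higher (56.4% of features) and the median was -0.02, and it was -0.06 without vehicle 20 h replicate 2. Without all 8 such libraries 19 were (55.0%), and the median turned to 0.01. Hyou1 alone had an unadjusted p under 0.05 there (0.030, against 6.01% of features), at -0.29 ± 0.12, and Hspa5 was at -0.37 ± 0.22. Herpud1 went the other way at 4 h, with 1284, 1053 and 1003 in vehicle and 1196, 1615 and 1568 in CORT. The groups overlapped through 1 library of each, and the difference was 0.39 ± 0.17 (unadjusted p = 0.033, adjusted p = 0.67). Atf4 was higher in CORT at 12 h, at 946, 1320.2 and 985 against 821, 843 and 886. These groups did not overlap, and the difference was 0.33 ± 0.15 (unadjusted p = 0.036, adjusted p = 1), which fell to 0.18 without CORT 12 h replicate 2, the library at 1320.2. Herpud1 and Atf4 were the only genes of the 32 with an unadjusted p under 0.05 at 4 and 12 h (6.9% and 4.51% of features), and at 16 and 24 h there were 0 (4.05% and 6.31%).

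**Figure D4:**
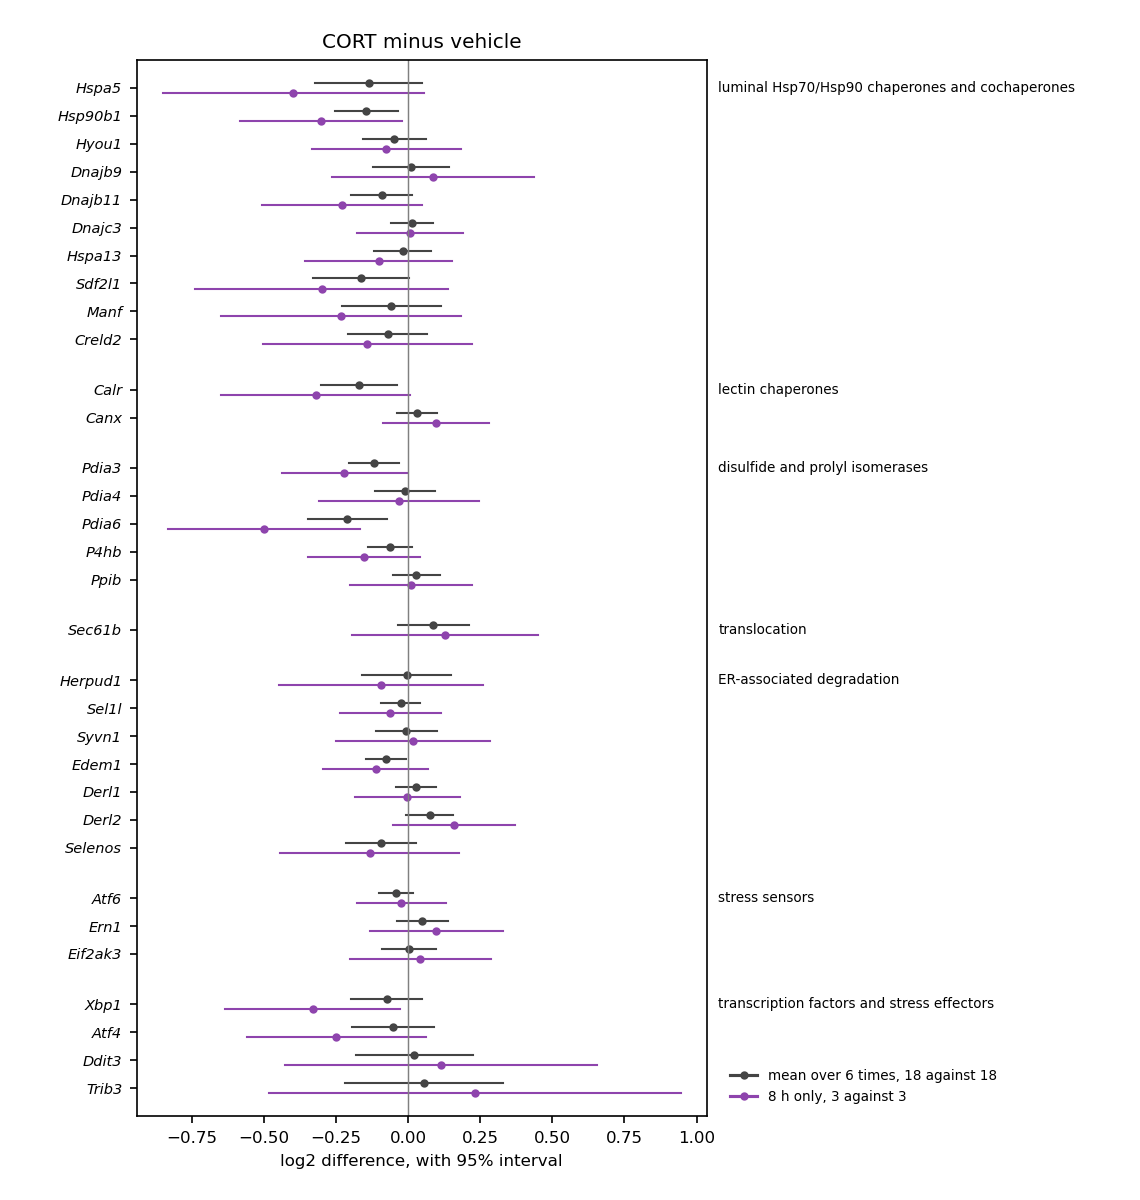
CORT minus vehicle in log2(value + 1) (x axis) with 95% intervals for the 32 genes (y axis, by role), as the mean over the day and at 8 h. Pdia6 lies furthest below 0, at -0.21 over the day and -0.50 at 8 h, and most intervals cross 0.

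Herpud1 was also the gene whose 24 h term differed most between treatments. The difference had an unadjusted p of 0.012 (adjusted p = 0.85, limma), and it was the only one of the 32 under 0.05, as were 4.37% of features. None of the 32 passed, where 0.106% of features did. Its fitted peak was at 13.2 h in vehicle, with an amplitude of 0.17 ± 0.06, and at 3.11 h in CORT, with an amplitude of 0.14 ± 0.07. In vehicle its mean was highest at the time at which Hspa5 was lowest, with 12 h values of 1805, 1139 and 1252. The first of these came from replicate 1, and the other 12 h libraries lay within the range of the other times.

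Related ER genes outside the 32 were taken from lists chosen with earlier results known. Over the day, 2.75% of all features passed as lower in CORT and 1.46% as higher. Among 17 other folding enzymes, 5 were lower in CORT over the day and 0 higher. These were the collagen chaperone Serpinh1 (Hsp47) at -0.55 ± 0.11 (limma adjusted p = 0.0047), the prolyl isomerases Fkbp10 at -0.43 ± 0.11 and Fkbp14 at -0.33 ± 0.10, the isomerase Pdia5 at -0.28 ± 0.07 and Txndc5 at -0.14 ± 0.04. Serpinh1, Fkbp10 and Fkbp14 are known for collagen folding. Among 12 N-glycan genes Uggt1, the glucosyltransferase that returns misfolded glycoproteins to calnexin, was lower at -0.13 ± 0.03. Of 15 translocation and signal peptidase genes and 15 other degradation genes 0 passed, and of 20 targets of Atf4, Vldlr was higher at 0.22 ± 0.06. Beside these, 4 of 8 fibroblast markers and 6 of 6 endothelial markers were lower in CORT and 1 of 8 urothelial markers was higher. Over all 12 lists of cell type markers, 11 of 68 genes tested passed, where 4.21% of features did, and the remaining lists had none. Summed fibroblast markers ran from 139810 over a median of 196010 to 301670 in vehicle and from 125320 over 166210 to 215590 in CORT. The part of cell makeup in these differences was not tested.

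Between late and early times, 0 genes of these 5 lists passed in either treatment (limma), and the lists had vehicle medians from -0.04 to 0.10. The smallest unadjusted p in vehicle belonged to Fkbp7, at -0.43 ± 0.11, and Aars, an aminoacyl-tRNA synthetase and Atf4 target, at 0.22 ± 0.06. The heat shock genes of the cytosol and mitochondria, a family known to answer to Hsf1, had medians of 0.10 in vehicle and 0.22 in CORT. Of these 11 genes 0 were called, and 1 and 5 were higher at an unadjusted p under 0.05 (5.94% and 2.58% of features). Their CORT median was like that of the luminal chaperones, so higher late values in CORT were not particular to the ER genes.

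Replicates of a group differed in Hspa5, and the other genes were compared with it across these differences. For each gene, the slope of its log2 level on that of Hspa5 was fitted within the 12 groups, a relation chosen after the values had been seen. It was positive and passed for 12 of the 31 other genes (38.7%), where 3.3% of 17866 features passed, 306 positive and 283 negative (1.71% positive). Manf had the steepest slope of them, 0.77 ± 0.11 log2 units per unit of Hspa5 (limma adjusted p = 0.00053), followed by Sdf2l1 at 0.66 ± 0.15, Creld2 at 0.61 ± 0.11, Pdia6 at 0.61 ± 0.09, Atf4 at 0.57 ± 0.08 and Xbp1 at 0.52 ± 0.09. The others were Calr at 0.44, Hsp90b1 at 0.42, Selenos at 0.42, Dnajb11 at 0.40, Hyou1 at 0.37 and Dnajc3 at 0.29. All 9 other luminal chaperones had a positive slope, and 7 passed.

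The RNA levels of the sensors did not share this variation. Counts per gene measure neither the activity of a sensor nor the splicing of Xbp1. Atf6 had a slope of -0.14 ± 0.06 (unadjusted p = 0.030), Ern1 of -0.14 ± 0.10 and Eif2ak3 of 0.02 ± 0.11. Canx, with the element in its promoter, had a slope of 0.00 ± 0.08, and Herpud1, with ERSE-II, of -0.15 ± 0.16. Ddit3, at 0.18 ± 0.24, was imprecise.

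As correlations of deviations from group means over 36 libraries, Manf had Pearson's r = 0.84 and Spearman's rho = 0.83 with Hspa5 (permutation p = 3e-05 and 4e-05). Without the 2 libraries whose deviation of Hspa5 lay farthest from the median deviation, vehicle 16 h replicates 1 and 3, r was 0.79, and it was 0.88 within vehicle and 0.79 within CORT. Within replicate numbers 1, 2 and 3 it was 0.96, 0.89 and 0.83. For Pdia6, r was 0.84 and rho 0.83, with r = 0.83 without those 2 libraries (permutation p = 2e-05 and 4e-05). For Atf4 the values were 0.85 and 0.74, and 0.75 without them (permutation p = 1e-04 and 0.00014), and for Xbp1 0.79 and 0.80, and 0.71 (permutation p = 3e-05 and 2e-05). Atf6 had r = -0.50 and rho = -0.49, and r = -0.53 without them (permutation p = 0.017 and 0.022). These p-values are 31 in number and unadjusted, and the adjusted ones are those of the slope. Over all 496 pairs of the 32 genes the mean r was 0.24, against 0.0037 over pairs of all features.

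**Figure D5:**
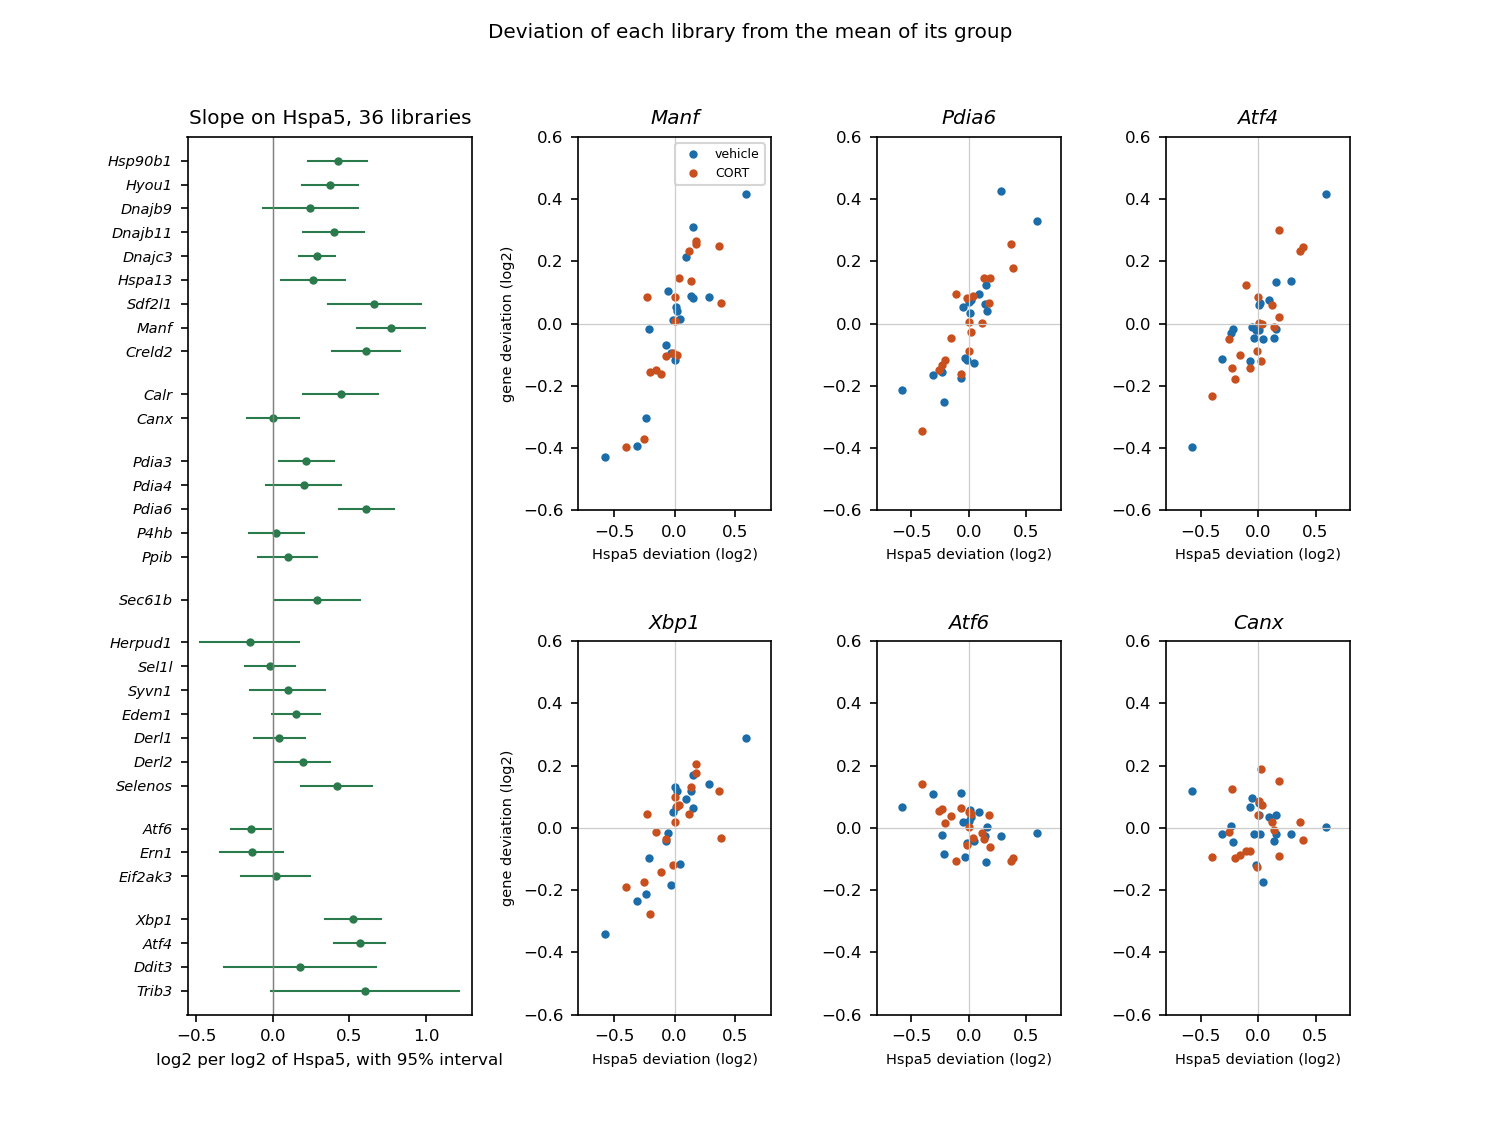
Slope of each gene on Hspa5 within groups, in log2 units per log2 unit with 95% intervals (x axis, 31 genes on the y axis), and deviations from the group mean of 6 genes against those of Hspa5, 1 point a library (36 libraries). Manf, Pdia6, Atf4 and Xbp1 rise with Hspa5, Canx is flat and Atf6 slopes downward.

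The number of slopes called depended on the libraries. It was 6 without vehicle 16 h replicate 1 (1.23% of features), 6 without replicate 3 of that group (0.416%), 7 without CORT 20 h replicate 2 (1.90%) and 3 without the 8 libraries named in 2 ways (0.514%). It was 0 when all 12 libraries of any replicate number were left out, where at most 4 features passed (0.0223%). Genes outside the 32 that moved with Hspa5 included Mthfd2 at 1.43 ± 0.26 and Atf5 at 0.42 ± 0.11 among Atf4 targets. Among folding enzymes they included Serpinh1 at 0.78 ± 0.18 and Fkbp14 at 0.72 ± 0.15. The translocon gene Ssr2 was at 0.36 ± 0.09 and the signal peptidase gene Spcs3 at 0.25 ± 0.07. Of 11 heat shock genes 3 moved with Hspa5, the cytosolic Hsph1 and Hsp90aa1 and the mitochondrial Hspd1, at 0.83, 0.66 and 0.45. Of the 68 genes tested in the 12 marker lists 0 passed (limma), and 5 had an unadjusted p under 0.05, where 17.7% of features did. The 5 glucocorticoid targets Zbtb16, Fkbp5, Tsc22d3, Sgk1 and Per1 had negative slopes, at -1.33 ± 0.41, -0.80 ± 0.26, -0.59 ± 0.23, -0.56 ± 0.25 and -0.22 ± 0.26, of which 0 passed and 4 had an unadjusted p under 0.05. Handling, depth and time of collection within a group are not recorded in the labels, and their part was not tested.

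Genes with either element in the promoter and genes without one were set side by side, without a test. Genes without a promoter entry, Hyou1 and Manf among them, were left out. In vehicle the late-minus-early difference had a median of 0.16 in the 10 genes with ERSE or ERSE-II, 9 of them above 0, and of 0.05 in the 17 without, 11 of them above 0. In CORT the medians were 0.16 and 0.02. Slopes on Hspa5 passed for 6 of 9 genes with an element and 4 of 17 without. At 8 h the CORT-minus-vehicle medians were -0.19 and -0.03. The spread within each class was wider than these gaps: genes with an element ran from -0.02 (Herpud1) to 0.44 (Hspa5) in the vehicle contrast, and Sdf2l1 reached 0.41 with neither sequence in its window.

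In the authors' deposited table of genes selected on 2 vehicle replicates, Hspa5 was the only one of the 32. The authors' other 3 deposited tables of selected genes listed 0 of the 32. Those selected on 3 replicates carry the other library names.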

How the data were processed

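RNA-seq was run on 36 whole-bladder libraries, 3 for each of 12 groups of treatment and time. The authors deposited, per the file headers, signal values that are read counts per gene quantile-normalised over the 12 libraries of each of 6 tables, and the same sorted values recur in every library of a table. Tables of selected genes were deposited by the authors on a log2 scale and were used only for names. The build was mm10, per the submitters' processing notes, and no aligner or counter is named in the sources used here. The mean count per library was solved from the tables that share libraries, and each library was set to 1 common distribution of its treatment or of all 36. Totals of single libraries are unknown, so no counting interval is given.

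Values were tested as log2(value + 1) with limma 3.58.1 in R 4.3.3, on features above 0 in at least 50% of libraries, with Benjamini-Hochberg adjustment over all of them and a threshold of 0.05. Fold changes are on that scale and understate those of low genes. Tests within a treatment used its 18 libraries, and tests between treatments all 36. Scripts were tested on simulated data. The members, the lists and the late-minus-early contrast were chosen with earlier results of these data known. Values are printed for genes with an adjusted p of 0.05 or less, else for the 4 smallest p-values per comparison, and always for Hspa5, Xbp1, Atf4 and Ddit3. Levels per kb used exon lengths of GENCODE M21, and permutation p-values 100000 resamples. Alternatives changed the pseudocount, filter, scaling, variance model, weights, block, names and libraries. The 12 h term, the slope on Hspa5 and the counts of groups that do not overlap were added after seeing the data.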

Additional observations from a re-analysis of the deposited data

How the results depend on the processing

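Members called are counted out of 32 (31 for slopes). For late minus early in vehicle the 1 call (Hyou1) became 0 with no filter, with values as deposited, with TMM scaling, with the other naming of 8 libraries and without those 8 libraries, and 7 with library weights (8.88% of features, against 0.519%). It ran from 0 to 6 when single libraries were left out, with 6 without vehicle 16 h replicate 3 (2.52% of features), and was 0 without any replicate number. For any change over time in vehicle the 0 calls became 1 with features of a mean of at least 10, 1 with an intensity trend and 12 with library weights, and ran from 0 to 5 without single libraries and from 0 to 1 without replicate numbers. CORT minus vehicle went from 0 to 1 with library weights over the day (Pdia6), at 4 h (Herpud1, 2.23% of features) and at 8 h (Pdia6, 5.46%), and over the day to 1 with values as deposited (Derl2, higher at 0.15, where 17.5% of features passed). Left-out libraries gave 0 to 1 over the day, and left-out replicate numbers 0 to 1 at 4 h, where Herpud1 passed without replicate 1 (0.497% of features). Slopes on Hspa5 went from 12 to 3 without the 8 libraries named in 2 ways, to between 6 and 12 without single libraries and to 0 without any replicate number, where the cause was not tested. The other comparisons kept 0 calls under every setting run. Directions of CORT minus vehicle turned for Pdia3 at 8 h, to 0.049 with the other naming, and without replicate 1 for Atf6 at 4 h (from -0.15 to 0.028 over the replicate numbers left out) and Hyou1 at 16 h (from -0.30 to 0.0075). The replicate numbers were not used as pairs: deviations of libraries of the same number and time correlated at 0.07 on average (from -0.10 to 0.26), so not every pair exceeded 0.1. As a hint from the data that libraries of a number share some variation, 31.3% of all pairs with the same number and 8.08% of those with different numbers exceeded 0.1, and 30 of 36 libraries correlated best with their own number. With the replicate block, 1 of the 32 was called over the day in place of 0, Hsp90b1 at -0.14 (limma adjusted p = 0.040, 6.83% of features), and 13 slopes in place of 12.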
